A study of Mus musculus with 9 samples.

Results

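Liver expression in KKAy mice injected with insulin was compared with that in untreated KKAy mice, taking both insulin-treated groups as 1 arm. KKAy mice are obese and serve to model type 2 diabetes. The arm was chosen by the sample titles and holds 6 of the 9 arrays of the series, 3 of the insulin group and 3 of the biomineralized insulin (BI) group, and the other 3 arrays are the untreated group. Per the labels, every animal was 8 weeks old, and a chow with 34% fat is given for 8 of the 9 arrays. Insulin mice received 100 µL of DMEM, a cell culture medium, with insulin at 40 µg/mL by intraperitoneal injection. BI mice received the same volume and total insulin concentration, of which 11% was in the biomineralized form. The first group carries the treatment label "none", whereas the protocol speaks of controls injected with DMEM, so an effect of insulin and one of the injection cannot be told apart. The growth protocol of BI replicate 2 describes rats, and the array was kept in its labelled group. The labels give 8 to 12 mice per group, and each group has 3 arrays. Whether an array holds 1 animal or a pool, and how long after injection the liver was taken, is not stated in the labels. The p-values therefore rest on the scatter among these samples alone, and part of that scatter may be technical.

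Insulin acts on the liver through its receptor, adaptor proteins and the kinase Akt. In the classical picture Akt keeps FOXO1 out of the nucleus, which lowers transcription of gluconeogenic enzymes such as Pck1 and G6pc, and insulin also favours SREBP1c, the transcription factor that drives fatty acid synthesis. SREBP2, a related factor, drives cholesterol synthesis and is held back when membranes are rich in sterols. In insulin resistance these branches can respond unequally.

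The median deposited signal of an array ranged from 6.12 to 6.30 (log2). Pairs of injected arrays correlated at r = 0.912 to 0.921 over all probe sets, pairs of untreated arrays at 0.911 to 0.914, and pairs across the arms at 0.909 to 0.920. Membership of an arm was therefore not visible in the overall profiles. All 10 measured hepatocyte markers had a mean of 7 or more, in accord with the labelled tissue, and 5 were higher and 5 lower after injection, with a median difference of -0.0016 (log2). A mean of 7 over the 9 arrays is used below as the level from which values are described. It was met by 17547 of 45037 probe sets (39.0%) and by 9559 of 18193 genes.

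The comparison asked which liver transcripts differ after insulin injection, whatever its form. A single probe set passed, that of BC048507 (probe set 1439446_at), a gene known only by its cDNA name. Its level was 1.12, 1.47 and 0.79 on untreated arrays 1, 2 and 3, 3.64, 4.39 and 4.27 on the insulin arrays, and 4.37, 4.22 and 4.66 on the BI arrays. The arms did not overlap, and the probe set rose by 3.13 ± 0.24 (SE, log2, n = 6 against 3; limma, Benjamini-Hochberg adjusted p = 0.0342). All 9 values lie below the medians of their arrays, so how far they stand above background is not known. The call was lost in 12 of 17 other settings in which the probe set could be tested.

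That 1 call is 0.00222% of the probe sets tested. Among the 17547 with a mean of 7 or more, 0 passed (0%), with a smallest limma adjusted p of 0.575, and 344 (1.96%) had an unadjusted p under 0.05. The arms did not overlap for 342 of them (1.95%), 174 higher (0.992%) and 168 lower (0.957%) after injection. A difference of 2-fold or more was measured for 34 higher and 20 lower probe sets at this level. The median size of a gene's difference was 0.10 (log2), against a median 95% half-width of 0.41, so a difference of usual size could not be resolved in this fit. Below a mean of 7 the half-width was 1.48. The width depends on the variance model, as limma draws the variance of each probe set toward a value common to all probe sets fitted. When only the 17547 were fitted, 799 had an unadjusted limma p under 0.05 and 0 passed.

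**Figure D1:**
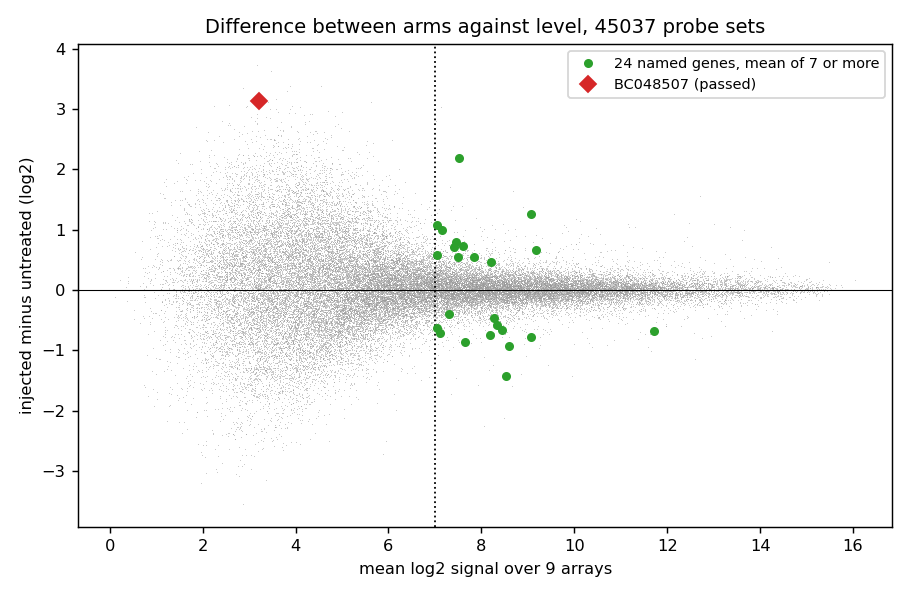
Injected minus untreated difference (log2, y axis) against the mean log2 signal over 9 arrays (x axis) for each of 45037 probe sets, shown as grey points. The dotted line marks a mean of 7, the red diamond is BC048507, the only probe set that passed, and green points are the 24 genes named for the smallest p at a mean of 7 or more; the spread is widest at low signal.

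Genes at a mean of 7 or more whose arms did not overlap were ranked by p, and the first 12 on each side are described as values, since none passed (limma adjusted p = 0.575 to 0.981). Any probe set of a gene could enter this ranking, so its background is the 0.992% and 0.957% of probe sets above. Counted with 1 probe set per gene, that of highest mean, 102 of 9559 genes (1.07%) did not overlap on the higher side and 88 (0.921%) on the lower. For 11 of the 24 ranked genes another probe set had the higher mean. Adcy5, an adenylyl cyclase that makes cAMP, stood at 5.59, 5.24 and 7.38 on the untreated arrays and at 7.95 to 8.58 (median 8.26) on the injected ones. Untreated array 3 lay well above the other two, and the difference was 2.19 ± 0.43 (log2) with adjusted p = 0.575. Without that array the Adcy5 difference was 2.84 and passed (adjusted p = 0.0268, the smallest over all settings, in which it ran up to 1). The probe set, 1447696_x_at, is of a kind that can bind related transcripts. The gene's other probe sets, all with a mean below 7, gave -0.21, 0.51 and 0.04 ± 0.18. The last of these had the highest mean of them, 6.36.

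Sh2b1, an adaptor that binds the insulin receptor and JAK2, had 8.76, 8.70 and 8.71 on the untreated arrays. On the insulin arrays it read 9.14, 9.44 and 9.50, and on the BI arrays 9.62, 9.48 and 9.16. Every injected array therefore lay above a tight untreated group, by 0.67 ± 0.15 (log2; limma adjusted p = 0.727). Esrrg, an orphan nuclear receptor of energy metabolism, was 6.50, 6.41 and 6.54 in untreated liver and 7.02 to 7.93 (median 7.50) after injection, a difference of 0.99 ± 0.23. P2rx4, an ATP-gated ion channel, differed by 0.79 ± 0.17 on 1 probe set, but its 3 other probe sets at this level gave -0.21, 0.31 and -0.22. Tcf7l1, a transcription factor of the Wnt pathway, differed by 1.08 ± 0.29.

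Cyp2c38, a cytochrome P450 of the Cyp2c family, read 8.40, 7.69 and 8.62 without treatment. It stood at 9.24, 9.40 and 8.80 on the insulin arrays and at 9.70, 9.90 and 9.94 on the BI arrays. The BI arrays were the highest, and the pooled difference was 1.26 ± 0.31 (log2; limma adjusted p = 0.816). The remaining higher genes are Frrs1, a ferric reductase (0.73 ± 0.16), Psma1, a subunit of the proteasome core (0.71 ± 0.21), Taf7 of the basal transcription factor TFIID (0.57 ± 0.17) and Arv1, a protein of sterol transport (0.54 ± 0.15). Mrpl3 of the mitochondrial ribosome (0.54 ± 0.17) and Ttc19, which helps assemble respiratory complex III (0.47 ± 0.14), complete the set. For Mrpl3, 2 other probe sets gave -0.08 and 0.07, and for Psma1 they gave 0.17 and 0.02. A stronger probe set of Frrs1, with a mean of 11.12 beside 7.60, gave -0.03 ± 0.14, and a second one of Ttc19 gave 0.04.

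On the lower side, Enho encodes adropin, a peptide secreted by the liver. Untreated arrays held 9.38, 9.76 and 9.31, insulin arrays 8.76, 7.90 and 9.02, and BI arrays 7.90, 7.69 and 7.11. Values were lowest after BI, and the pooled difference was -1.42 ± 0.41 (log2; limma adjusted p = 0.906). A second probe set of Enho gave -1.58 ± 0.50.

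Ppargc1a, a coactivator of gluconeogenesis and mitochondrial genes, was tight in the untreated group at 8.65, 8.70 and 8.80. After insulin it read 7.97, 8.47 and 8.00, and after BI 8.12, 8.00 and 8.32. All injected arrays were lower, by -0.57 ± 0.16 (log2; limma adjusted p = 0.905). Its 4 other probe sets at this level gave -0.64, -0.35, -0.24 and -0.31, all of the same sign, with overlapping arms. The BI and insulin means of Ppargc1a were nearly equal.

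Plxnb1, a semaphorin receptor, differed by -0.92 ± 0.27, and a second probe set by -0.08. Atp4a, the catalytic chain of the gastric proton pump, differed by -0.86 ± 0.21. Itih5, a hyaluronan-binding plasma protein, gave -0.74 ± 0.20 with a second probe set at -0.40. Nrp2, a co-receptor for semaphorins and VEGF, gave -0.70 ± 0.16 on 1 probe set and -0.07 and -0.03 on 2 others. Tmprss2, a membrane serine protease, gave -0.65 ± 0.20, and of its other probe sets 1458347_s_at (-0.72) also had arms that did not overlap.

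Hsd17b7, an enzyme of cholesterol synthesis, differed by -0.77 ± 0.22, and the autophagy protein Wipi1 by -0.62 ± 0.18. Tlcd2, a membrane lipid regulator, gave -0.68 ± 0.19, Scrn3 -0.47 ± 0.13 and Rfxap, a subunit of the factor that drives MHC class II genes, -0.39 ± 0.12. Stronger probe sets of Scrn3 gave -0.08 and 0.01, and that of Rfxap gave 0.12, of the opposite sign. The 4 other probe sets of Wipi1 at this level gave -0.45, 0.18, 0.04 and -0.35, and those of Hsd17b7 gave -0.25 and -0.50. Below a mean of 7, a further probe set of Wipi1 gave -0.06 and a further probe set of Hsd17b7 gave 0.14. Across both sides, 15 of the 24 genes had other probe sets at this level, 29 in all, of which 21 had the same sign and 1 had arms that did not overlap. None of the 24 differed between BI and insulin past the threshold (smallest limma adjusted p = 0.921).

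**Figure D2:**
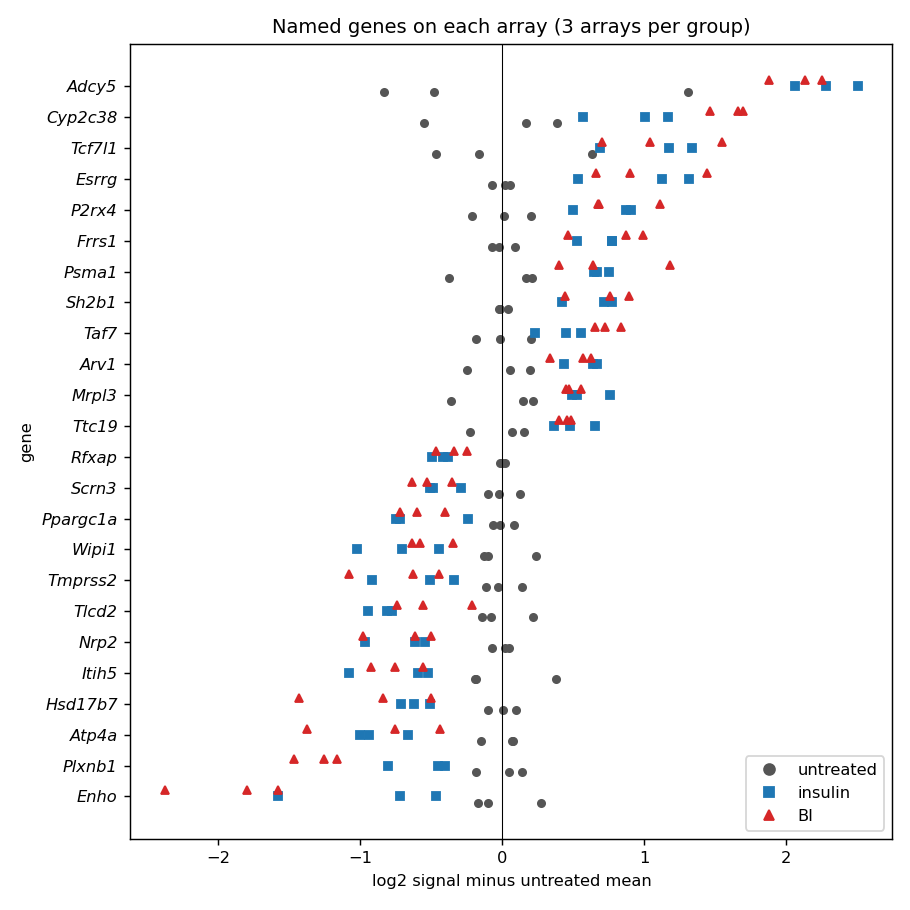
Log2 signal minus the untreated mean of the gene (x axis) on each of 9 arrays, for the 12 higher and 12 lower genes of smallest p at a mean of 7 or more (y axis). Grey circles are untreated, blue squares insulin and red triangles BI arrays; the arms do not overlap for any gene because that chose them, and Adcy5 and Enho have the longest spans.

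Genes of insulin receptor signalling did not stand to one side. Of 28 measured members at a mean of 7 or more, 0 passed, as 0 of all 17547 probe sets at this level did. Among these members 14 were higher and 14 lower. Their median difference was 0.01 (log2), beside 0.0024 over all 9559 genes. Insr, the receptor, read 11.77, 11.59 and 11.41 untreated and 11.27 to 11.70 (median 11.49) after injection. The arms overlapped and the difference of -0.10 had a 95% interval of -0.44 to 0.24. Akt1, 1 of the forms of the kinase Akt, stood at 9.02, 8.85 and 8.38 untreated and at 8.01 to 8.47 (median 8.22) injected. Its ranges touched only through untreated array 3, and the difference was -0.53 ± 0.18 (log2; limma adjusted p = 0.998), with a second probe set at -0.10 ± 0.17. Pik3r2, a regulatory subunit of PI3-kinase, differed by 0.65 ± 0.28, Foxo1 by 0.19 ± 0.15, Irs1 by -0.19 ± 0.23 and Mtor by -0.18 ± 0.18.

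Gluconeogenesis and FOXO1 target genes were likewise divided, with 7 of 15 members higher, 8 lower and 0 past the threshold. The median was -0.02 and ranged from -0.11 (without untreated array 2) to 0.03 (without untreated array 3). Pck1, which commits carbon to glucose synthesis, read 14.34, 13.88 and 14.01 untreated. The insulin arrays held 14.40, 14.24 and 14.30 and the BI arrays 13.95, 14.02 and 13.75, all close to the untreated values. The pooled Pck1 difference was 0.04 ± 0.19 (95% interval -0.40 to 0.47). G6pc, the enzyme that releases free glucose, differed by 0.03 ± 0.39 with an interval of -0.87 to 0.92. Fbp1 differed by -0.02 ± 0.14 (interval -0.35 to 0.30) and Igfbp1, a FOXO1 target secreted by the liver, by 0.04 ± 0.40. For Pck1 and Fbp1 these intervals leave out a 2-fold difference in either direction, and so does that of G6pc, though narrowly. Ppargc1a, described above, was the only member of the list whose arms did not overlap at a mean of 7 or more. Of all 9559 genes at this level, 0.921% did not overlap on the lower side and 1.07% on the higher. Nr4a1, an inducible nuclear receptor with a mean of 6.76 and so outside these counts, differed by 0.38 ± 0.16, also without overlap.

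Cholesterol synthesis genes lay on one side. All 18 members at a mean of 7 or more were lower in the injected arm, where 4717 of 9559 genes (49.3%) were lower, and 0 passed. The median difference was -0.49 (log2), -0.51 for the insulin arrays and -0.51 for the BI arrays taken alone; these share the untreated arrays. Msmo1, the C-4 sterol methyl oxidase, stood at 9.31, 10.24 and 11.22 on untreated arrays 1, 2 and 3 and at 8.68 to 9.39 (median 8.98) after injection. Untreated array 1 fell inside the injected range and array 3 far above it, with a difference of -1.25 ± 0.38 (limma adjusted p = 0.981). Dhcr7, the last enzyme of the pathway, read 10.37, 10.41 and 11.62 untreated and 9.78 to 10.13 (median 10.02) injected, without overlap, and differed by -0.80 ± 0.28 (adjusted p = 0.998). Cyp51, the lanosterol demethylase, differed by -1.01 ± 0.42 and Fdps, which makes farnesyl diphosphate, by -1.44 ± 0.65, both chosen after their values were seen.

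The untreated arrays were far apart for this pathway. The list score is the mean over members of the log2 signal minus its mean over 9 arrays. It was -0.27, 0.30 and 1.04 on untreated arrays 1, 2 and 3. Injected arrays lay between -0.38 and 0.02, so untreated array 1 was within their range. Without untreated array 3, 14 of the 18 genes were lower and the median was -0.15. Without untreated array 2, 17 were lower with a median of -0.55, and without untreated array 1 the median was -0.74. Untreated array 3 also had the highest Gapdh 3′ minus 5′ signal, a sign of RNA quality, at 0.65 (log2), beside 0.28 and 0.31 on the other untreated arrays and 0.26 to 0.55 on the injected arrays. The part of RNA quality in the result was not tested.

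**Figure D3:**
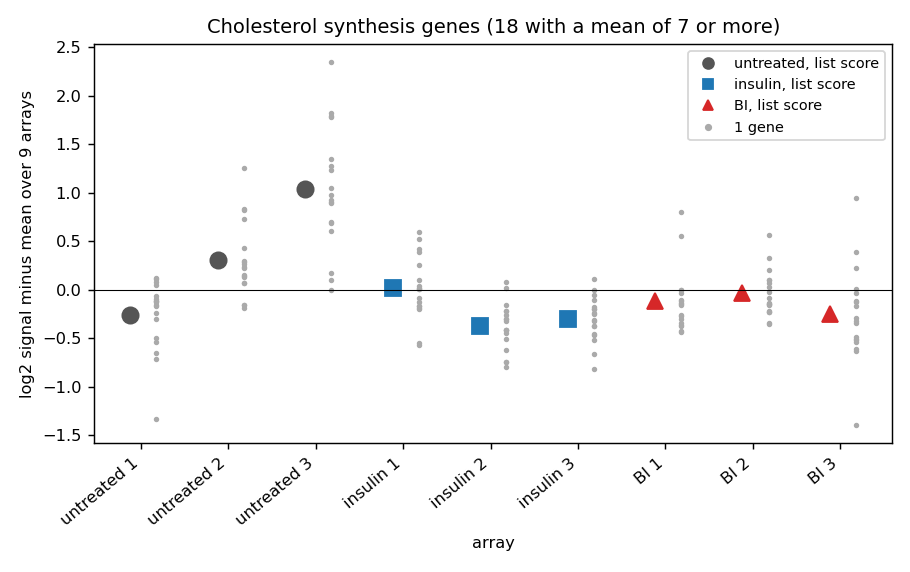
Log2 signal minus its mean over the 9 arrays (y axis) for the 18 cholesterol synthesis genes with a mean of 7 or more on each array (x axis); small grey points are genes and large symbols the list score of the array. Untreated array 3 is highest with a score of 1.04, and untreated array 1 (-0.27) lies among the injected arrays (-0.38 to 0.02).

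The promoters of 3 genes of this list are shown because the genes share SREBP2, which acts together with NF-Y, a factor that binds CCAAT boxes. Sequences are RefSeq promoters of GRCm38.p6, from 250 bases before to 50 after a transcription start, 5′ to 3′ on the strand of the gene. Capitals mark CCAAT on either strand (ATTGG where the box lies on the opposite strand).
Msmo1 (chr8:64733529-64733828, minus strand): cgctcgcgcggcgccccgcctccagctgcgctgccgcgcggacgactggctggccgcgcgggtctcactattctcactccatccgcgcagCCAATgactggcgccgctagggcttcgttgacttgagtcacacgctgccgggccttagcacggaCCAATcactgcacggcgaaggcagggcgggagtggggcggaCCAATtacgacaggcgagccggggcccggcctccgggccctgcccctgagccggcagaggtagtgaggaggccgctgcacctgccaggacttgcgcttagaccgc
Dhcr7 (chr7:143829964-143830263, plus strand, 1 of 3 annotated starts): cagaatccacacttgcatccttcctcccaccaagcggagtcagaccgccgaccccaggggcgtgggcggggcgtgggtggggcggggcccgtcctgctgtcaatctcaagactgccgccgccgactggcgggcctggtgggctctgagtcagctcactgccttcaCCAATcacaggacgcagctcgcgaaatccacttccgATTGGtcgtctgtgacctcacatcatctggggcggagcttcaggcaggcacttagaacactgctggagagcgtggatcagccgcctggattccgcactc
Hsd17b7 (chr1:169969156-169969455, minus strand): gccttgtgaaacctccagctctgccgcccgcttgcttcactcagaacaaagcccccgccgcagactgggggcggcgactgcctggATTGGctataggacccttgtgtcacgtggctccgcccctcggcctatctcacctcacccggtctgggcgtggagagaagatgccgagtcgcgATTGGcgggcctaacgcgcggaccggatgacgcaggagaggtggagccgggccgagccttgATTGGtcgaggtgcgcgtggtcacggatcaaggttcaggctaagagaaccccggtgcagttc
The Msmo1 window holds 3 matches, that of Dhcr7 2 and that of Hsd17b7 3. The windows at the other 2 Dhcr7 starts hold 0. CCAAT on either strand was found in 16 of the 19 promoters of the list that were matched (84.2%), which cover 16 genes, against 37.4% of all 32851 promoters. A match is a string of letters and not a bound site.

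Lipogenesis and triglyceride synthesis genes leaned the same way less evenly. Of 27 members, 20 were lower, 7 higher and 0 past the threshold, with a median of -0.14. The score was -0.27, 0.08 and 0.63 on the untreated arrays and -0.30 to 0.15 on the injected arrays, so untreated array 3 again lay highest. Without that array 12 of 27 members were lower and the median was 0.05, on the other side of 0. Acacb, the acetyl-CoA carboxylase at the mitochondrion, shows the pattern with 7.50, 9.15 and 10.60 untreated and 7.18 to 8.32 (median 7.87) injected, a difference of -1.26 ± 0.58. Srebf1, which encodes SREBP1, went the other way, at 13.52, 13.53 and 13.42 untreated and 13.68 to 14.02 (median 13.74) injected. Its arms did not overlap and the difference was 0.31 ± 0.13 (log2; limma adjusted p = 0.998).

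Fatty acid use and export were measured through several lists, in none of which a member passed. In fatty acid oxidation and PPARA targets, 20 of 32 members were higher and the median was 0.05, which was 0.02 without BI array 3 and 0.00050 without untreated array 2. Aldh3a2, a fatty aldehyde dehydrogenase, read 9.12, 9.50 and 9.35 untreated, 9.54, 9.93 and 9.88 after insulin and 10.01, 10.12 and 10.42 after BI. The 3 groups were ordered without overlap, and the pooled difference was 0.66 ± 0.20 (log2; limma adjusted p = 0.981). Acot1, an acyl-CoA thioesterase, differed by 0.85 ± 0.37, with insulin array 1 below the untreated values. Lipid droplet and uptake genes had a median of 0.10 with 12 of 18 higher, which was 0.02 without untreated array 1, 0.15 without BI array 1 and 0.26 without untreated array 3. Lpl, lipoprotein lipase, differed by 1.02 ± 0.45 and by 0.92 ± 0.37 on a second probe set.

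Lipoprotein, bile acid and sterol transport genes were divided (17 of 29 higher), with a median of 0.01 that ranged from -0.06 (without untreated array 2) to 0.08 (without untreated array 3). Apoa5, a regulator of plasma triglycerides, was 14.35, 13.92 and 13.84 untreated and 14.21 to 14.76 (median 14.58) injected, a difference of 0.51 ± 0.18. Abcg8, a subunit of the transporter that moves sterols into bile, read 10.81, 9.15 and 9.21 untreated. Injected arrays lay at 10.24 to 10.83 (median 10.57), around the value of untreated array 1 and above the other two, and the difference was 0.87 ± 0.36. Its partner Abcg5, chosen after its values were seen, differed by 0.86.

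Drug metabolism genes, the cytochromes P450 and phase II enzymes, were higher for 26 of 38 members, with a median of 0.10 and 0 past the threshold. Cyp2c39, chosen after its values were seen, read 9.28, 9.57 and 9.78 untreated, 9.95 to 10.19 after insulin and 10.64 to 11.13 after BI, a pooled difference of 0.91 ± 0.28. Together with Cyp2c38 above, it belongs to a cluster of near-identical genes whose probe sets can share transcripts, so the 2 values may not be independent. Gstm2, a glutathione transferase, stood lower by -0.84 ± 0.24 with insulin array 1 (10.96) just above untreated array 1 (10.91). The list median was 0.05 without untreated array 2, 0.06 without BI array 2 and 0.16 without untreated array 3.

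Interferon response genes were higher for 27 of 31 members at a mean of 7 or more, where 4842 of 9559 genes (50.7%) were higher, and 0 passed. Their median was 0.36 (log2), but it was 0.71 for the insulin arrays alone and 0.06 for the BI arrays alone. The list score was -0.10, -0.26 and -0.35 on the untreated arrays, -0.19, 0.98 and 0.57 on the insulin arrays and 0.59, -0.39 and -0.85 on the BI arrays. It was thus high on insulin arrays 2 and 3 and BI array 1, while BI arrays 2 and 3 lay below every untreated array. Without insulin array 2 the median was 0.22 and without BI array 3 it was 0.56. Mx1, an antiviral GTPase with a mean below 7, is listed at 0 on untreated array 3 and stood at 5.63 and 5.07 on the others, against 6.19 to 7.55 (median 6.45) after injection. Gbp2, a guanylate-binding protein induced by interferon gamma, read 6.74, 6.76 and 6.61 untreated and 6.72 to 7.44 (median 7.15) injected, overlapping only at BI array 2 (0.44 ± 0.18; limma adjusted p = 0.998).

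The Gbp2 promoter is shown as an example of the interferon-stimulated response element, searched as GAAA, any 2 bases and GAAA on either strand, with the match in capitals (TTTC, 2 bases and TTTC where it lies on the opposite strand). It lies in 14 of the 29 promoters matched for the list (48.3%) and in 3.44% of all promoters of the same length.
Gbp2 (chr3:142620413-142620712, plus strand, RefSeq GRCm38.p6): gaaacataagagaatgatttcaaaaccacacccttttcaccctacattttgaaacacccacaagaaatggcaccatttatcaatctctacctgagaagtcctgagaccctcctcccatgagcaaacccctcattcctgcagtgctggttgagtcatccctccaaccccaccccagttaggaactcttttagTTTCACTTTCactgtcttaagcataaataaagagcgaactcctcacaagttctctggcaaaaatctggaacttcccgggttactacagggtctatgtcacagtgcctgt

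Scores of macrophage markers were high on the arrays where the interferon score was high. Kupffer cell and macrophage markers, 15 at a mean of 7 or more, had a score of 0.37 and 0.39 on insulin arrays 2 and 3 and 0.36 on BI array 1, the 3 arrays with the highest interferon scores, and of -0.49 to -0.12 on the other injected arrays. Untreated arrays scored -0.36, 0.30 and -0.14, so untreated array 2 had a high marker score without a high interferon score. Of these 15 genes 11 were higher after injection, with a median of 0.16 that ranged from 0.04 (without untreated array 1) to 0.34 (without untreated array 2). The summed linear signal of the 18 measured markers was 24020.1 to 40006 in untreated and 21992 to 44297 in injected liver, and no marker was at 0. In tissue, more cells of a type and more RNA per cell cannot be told apart, and the part of these cells in the interferon result was not tested.

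MHC class II genes, which present antigen, were higher for all 6 members at this level, with a median of 0.24. That median was 0.48 for the insulin arrays and 0.03 for the BI arrays, 0.14 without insulin array 3 and 0.42 without untreated array 2. H2-Aa read 10.47, 10.41 and 10.54 untreated, 11.02, 10.96 and 11.81 after insulin and 10.58, 10.48 and 10.94 after BI, and its pooled difference was 0.49 ± 0.28. The score of the list was highest on insulin array 3 (0.76). None of the 17 measured T and NK cell markers reached a mean of 7, and 9 lay below the array median on all arrays. After injection 10 of the 17 were higher and 7 lower, with a median of 0.20. Among them Eomes, a transcription factor of such cells, read 2.84, 2.79 and 2.98 untreated. It read 5.15, 5.62 and 5.82 after insulin and 3.61, 4.05 and 3.38 after BI. The Eomes difference was 1.73 ± 0.59, at a level whose background is unknown.

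**Figure D4:**
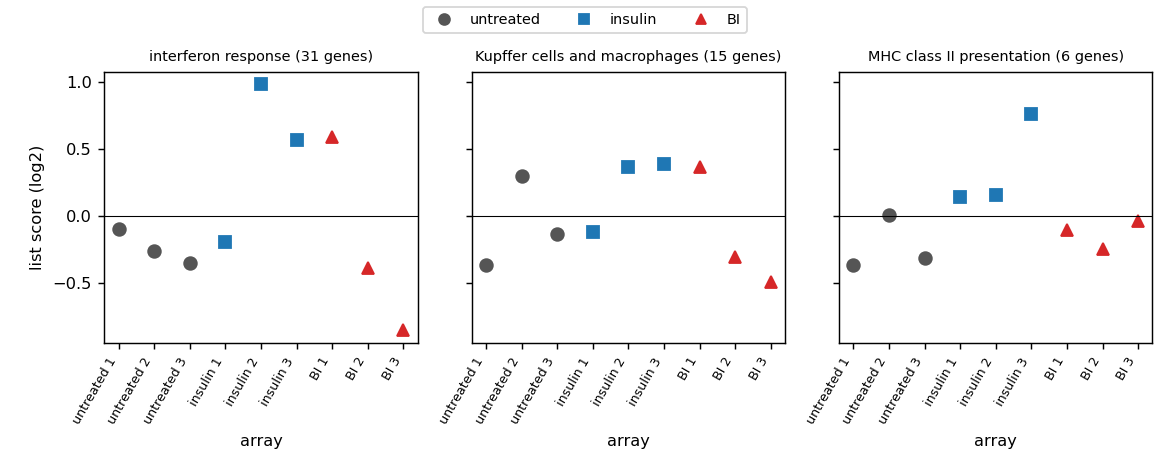
List scores of interferon response, Kupffer cell and macrophage, and MHC class II genes with a mean of 7 or more. The score (y axis) on each array (x axis) is the mean over members of the log2 signal minus its mean over 9 arrays. Insulin arrays 2 and 3 and BI array 1 are highest for the first (0.57 to 0.98) and the second list (0.36 to 0.39), and insulin array 3 for the third (0.76).

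In the proteasome list 27 of 31 subunits were higher with a median of 0.10, and without untreated array 3 the count was 21 and the median 0.05. Psma5, a core subunit, read 13.22, 13.20 and 13.19 untreated and 13.26 to 13.64 (median 13.54) injected, without overlap (0.30 ± 0.14). Amino acid breakdown and urea cycle genes were lower for 27 of 33 members with a median of -0.08, which ranged from -0.11 to -0.06 when each array was left out. Tat, tyrosine aminotransferase, stood at 13.31, 13.76 and 13.57 untreated and at 12.94 to 13.37 (median 13.12) injected, a difference of -0.40 ± 0.17. Hspb1, a small heat shock protein, was 9.29, 8.79 and 9.11 untreated and 9.31 to 10.09 (median 9.64) injected, a difference of 0.60 ± 0.20. Across ER stress and heat shock genes 20 of 29 were higher, with a median of 0.05 that ranged from 0.03 to 0.11 when each array was left out.

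The title of the series speaks of epigenetics, and 55 histone and DNA modifying enzymes at a mean of 7 or more were divided 27 to 28, with a median of -0.00020 and 0 past the threshold. Hdac4, a class II histone deacetylase, read 6.59, 6.84 and 7.25 untreated and 7.25 to 7.36 (median 7.30) injected, a difference of 0.40 ± 0.16. Other probe sets of Hdac4 gave -0.03 ± 0.21 at a mean of 6.76 and 0.81 ± 0.79 at a mean of 5.02. Hdac9 of the same class, with a mean below 7, differed by 0.74 ± 0.27 without overlap, and by 0.38 with values under 6 set to 6. Oxidative phosphorylation genes were divided 20 to 21, clock genes 10 to 9 and hepatocyte transcription factors 7 to 6. In the growth hormone list 9 of 16 were higher, in glucose uptake, glycolysis and glycogen 10 of 18, in the acute phase list 10 of 24 and among stellate cell and matrix genes 5 of 13. Higher members numbered 12 of 18 for liver endothelial cells, 4 of 9 for cytokines, chemokines and NF-kB, and 9 of 16 for the cell cycle. Markers of B cells, neutrophils, erythroid cells and adipocytes had 2 members each at a mean of 7 or more, those of exocrine pancreas 1, and those of cholangiocytes and skeletal muscle 0. Moxd1 of the growth hormone list, a monooxygenase, stood at 13.45, 13.38 and 13.55 untreated, 13.06, 12.71 and 13.18 after insulin and 12.72, 12.11 and 12.33 after BI. Its arms did not overlap and the difference was -0.78 ± 0.25 (log2; limma adjusted p = 0.998). Cxcl2, a neutrophil chemokine with a mean below 7, was 6.89, 8.17 and 6.93 untreated and 5.27 to 6.40 (median 6.02) injected, a difference of -1.39 ± 0.36 (adjusted p = 0.905). Bhlhe41, a repressor of the clock with a mean of 5.39, differed by 1.27 ± 0.34, but by 0.16 with values under 6 set to 6.

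**Figure D5:**
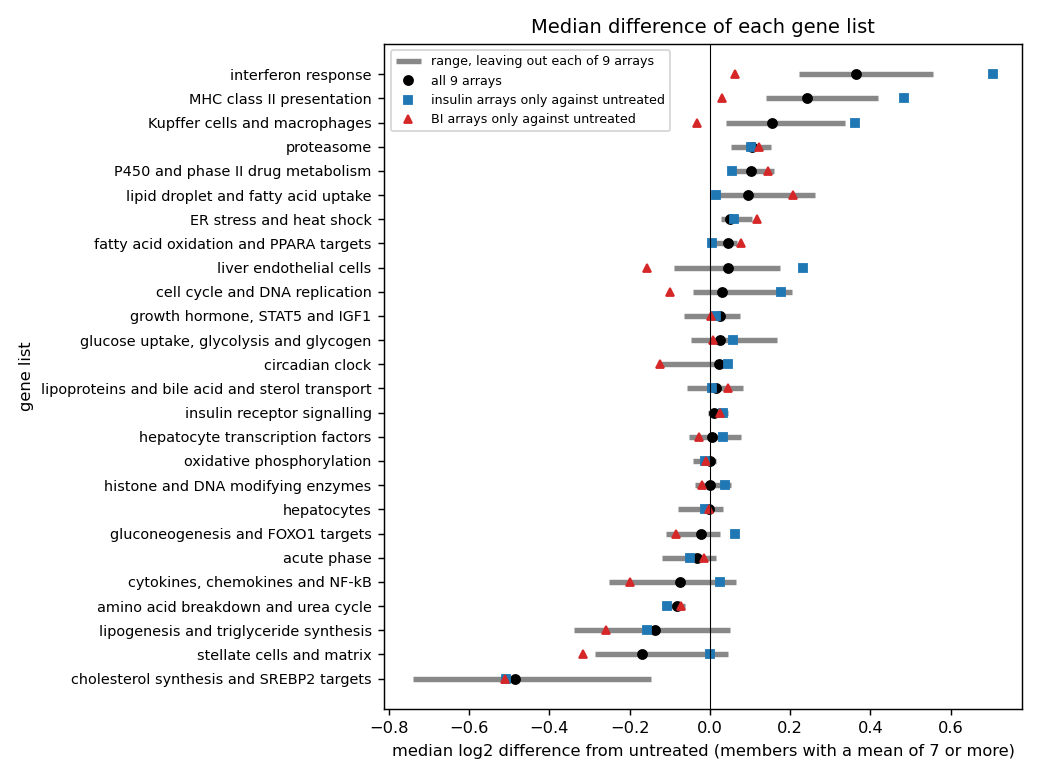
Median log2 difference from untreated (x axis) of the members with a mean of 7 or more in each of 26 gene lists (y axis). Black points use all 9 arrays, grey bars span the values with each array left out in turn, and blue squares and red triangles take the insulin or the BI arrays alone; cholesterol synthesis lies lowest (-0.49, bar from -0.74 to -0.15) and interferon response highest (0.36, bar from 0.22 to 0.56).

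Whether the pooled values stand for both forms of insulin was tested by BI against insulin inside the injected arm. With limma, 0 of 45037 probe sets passed (0%, smallest adjusted p = 0.0643), and 1821 (4.04%) had an unadjusted p under 0.05. In the same fit of 3 groups, injected against untreated had 2106 such probe sets over all levels. At a mean of 7 or more the groups of 3 did not overlap for 1693 of 17547 probe sets (9.65%). This share cannot be set beside the 1.95% of the pooled arms. Random ordering of the arrays separates 3 from 3 more often than 6 from 3, and neither share is above that from ordering alone. The median 95% half-width of a BI minus insulin difference was 0.50 (log2), so a missed threshold does not show that the 2 forms act alike. Of the named genes at a mean of 7 or more, Enho (-0.99 ± 0.35), Acot1 (0.75 ± 0.36), Plxnb1 (-0.75 ± 0.19), Cyp2c39 (0.74 ± 0.21), Lpl (0.73 ± 0.48) and Cyp2c38 (0.70 ± 0.28) had the largest BI minus insulin differences in size. In each of these 6 genes the BI mean lay further from the untreated mean than the insulin mean did. That did not hold for all named genes with smaller differences. Moxd1 (-0.60 ± 0.22) went the same way, but for H2-Aa (-0.59 ± 0.26) the insulin mean lay further out. Interferon response genes had a median BI minus insulin difference of -0.66, with the larger difference from untreated after insulin.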

How the data were processed

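Liver RNA was hybridised to 9 one-colour Affymetrix arrays after 3′ IVT labelling, per the labels' protocols. The authors deposited log2 signals per probe set; the summarization software and genome build are not given in the sources used here. Each array had a 2% trimmed mean of 500.0 (linear) and 152 to 247 probe sets at exactly 0, so values were used as scaled, with no further normalization and no detection call.

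The main fit was limma 3.58.1 in R 4.3.3 (lmFit, eBayes, 7 residual degrees of freedom) with the arm, injected (n = 6) or untreated (n = 3), as the only factor. Two-sided p-values were adjusted by Benjamini-Hochberg over 45037 probe sets (64 controls left out), with 0.05 as threshold. BI against insulin came from a fit of 3 groups (6 residual degrees of freedom). The script was tested on simulated data. The number of arrays limits the precision.

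Names came from the 2016 platform annotation. It gives 1 symbol for 34945 probe sets, several for 932 and none for 9160, and 34741 were matched to current names. The probe set of highest mean stood for a gene in lists and gene counts, whereas the genes ranked by p could enter on any probe set. Of 817 entries in 34 gene lists, 750 were matched. Lists were given by counts and medians without a test.

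Named genes are every probe set past the threshold, the 12 genes per direction of smallest p with a mean of 7 or more and arms that do not overlap (no clone names), the members of each list past the threshold or else its 2 of smallest p, and examples from the insulin signalling and gluconeogenesis lists. Members, lists and rules were chosen with earlier results of these data known. List summaries, without a level minimum and as counts with each array left out, were added after seeing the data. Same-numbered arrays were not paired: their deviations correlated at -0.25 to 0.20.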

Additional observations from a re-analysis of the deposited data

Results flagged for a closer look

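Among the 6 injected arrays, 2 of 51 named probe sets had 1 array far from the others, where chance flags about 1 in 20. Mrpl3 (1440636_at) stood at 7.89 on insulin array 2, with the other 5 injected arrays between 7.58 and 7.68. Hsd17b7 (1417871_at) stood at 8.15 on BI array 1, the others between 8.75 and 9.08.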

How the results depend on the processing

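The 1 call of the pooled comparison became 0 in the fit of 3 groups, with the insulin or the BI arrays only, with a floor at 6, when only probe sets with a mean of 7 or more were fitted (smallest limma adjusted p = 0.993), with variance trend and robust fitting, and with the replicate number as a block, although the numbers do not pair the arrays. It stayed 1 with quantile normalization, equal array medians and array weights. Leaving out each array gave 0 to 12 calls, 12 without untreated array 3, 4 without untreated array 1 and 2 without BI array 1, and 0 to 1 at a mean of 7 or more (Adcy5). The adjusted p of BC048507 was 0.0922 in the fit of 3 groups and 0.203 with the block, and ranged from 0.0166 to 0.989 over the settings in which it was tested. BI against insulin had 0 calls in each setting, except 1 without insulin array 1 or 2. The insulin signalling median (0.01) was -0.030 with equal array medians, and -0.0053 to 0.045 with each array left out. Equal array medians also turned lipoprotein transport (-0.027), glycolysis (-0.017), growth hormone (-0.016), clock (-0.020), cell cycle (-0.011) and hepatocyte factors (-0.036) below 0, and left ER stress at 0.0073 and fatty acid oxidation at 0.0045. The directions given for cholesterol synthesis, interferon response, MHC class II, P450, proteasome and amino acid lists held under both other scalings. Equal array medians moved the median over all probe sets from 0.012 to -0.029.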
